A study of Homo sapiens with 4 samples.

Results

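The interleukin-1 family ligands and receptors described here are 10 genes: the ligands IL1A, IL1B, IL18 and IL36G, the antagonists IL1RN and IL18BP, and the receptor genes IL1R1, IL1R2, IL1RAP and IL18R1. They were taken by name, and every probe set (a group of short probes that reads part of a transcript) annotated to 1 of them alone was used, which gave 21 of the 54675 probe sets on the array. The 10 were among 19775 genes with such a probe set. RNA came from THP-1, a human cell line derived from acute monocytic leukaemia, and was hybridised to 4 arrays with 1 array per condition. One array held cells kept 12 h with platelet-like particles (PLP 12 h) and another cells kept 24 h with them (PLP 24 h). Per the series design, both had also received Pam3CSK4, a synthetic lipopeptide that activates the TLR1 and TLR2 receptor pair. The other arrays held cells given Pam3CSK4 alone and resting cells with no treatment. The source cells of the particles and the duration of Pam3CSK4 alone are not given in the sources used here. The titles of the co-culture arrays carry the numbers 13 and 25 where their other labels give 12 h and 24 h, and those labels were followed.

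Interleukin-1 family cytokines are early signals of innate immunity, and monocytes are among their main sources. IL-1 alpha and IL-1 beta bind the receptor IL1R1, which recruits the accessory protein IL1RAP and signals through MYD88 and IRAK kinases to NF-kB. The receptor antagonist IL1RN blocks IL1R1, and the decoy receptor IL1R2 takes up ligand without a signal. IL-18 works through IL18R1 and its partner IL18RAP and is bound by the soluble protein IL18BP. IL-1 beta and IL-18 are made as precursors that caspase-1 cleaves inside inflammasomes.

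The deposited values are log2 expression from RMA, a method that brings all arrays to a common distribution and compresses small differences at low level. With 1 array per condition there was no spread between cultures, no test and no p-value, and each difference below compares 2 arrays rather than 2 conditions. Differences of at least 1 on the log2 scale are called 2-fold. The median of all values, 6.19, served as the filter level below which signal over background was not established. Both co-culture comparisons use the Pam3CSK4 array, so they are not independent. Of 13 monocyte markers with a probe set 11 reached the filter level, while FCGR1A and FCN1 were under it on every array. Markers of other cells reached it as well, 7 of 12 for platelets and megakaryocytes, 5 of 8 for lymphocytes, 2 of 6 for endothelium and 6 of 8 for fibroblasts and epithelia. Of all 19775 genes, 13410 reached it on at least 1 array, so reaching the level does not by itself identify a cell type. For GAPDH, control probe sets at the 3' end exceeded those at the 5' end, a gap that widens as RNA degrades, by 0.92 on the PLP 12 h array, 0.70 on the PLP 24 h array, 0.59 with Pam3CSK4 and 2.16 in resting cells. For ACTB the gaps were 3.17, 2.90, 2.91 and 3.41 in the same order of arrays. The resting array thus had the widest gap for both genes, by a smaller margin for ACTB. The PLP 12 h array had a wider gap than the PLP 24 h and Pam3CSK4 arrays for both. The part of these gaps in the differences between Pam3CSK4 and resting cells, and in those of the PLP 12 h array, was not tested.

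With Pam3CSK4, IL1B was the family gene furthest above its resting level, and IL18R1, IL1RN and IL1R2 were also at least 2-fold higher. That is 4 of the 10 genes higher and 0 lower, where 4.14% of the 13410 genes at or above the filter level on at least 1 array were higher and 1.71% lower. Without the filter, 2.86% of all 19775 genes were higher and 1.22% lower. The median difference over the 10 genes was 0.42, and -0.04 over all 19775 genes, with no filter in either. With the particles, 0 of the 10 genes differed 2-fold from Pam3CSK4 alone in either direction. Of all 19775 genes, 0.308% were higher and 0.243% lower at 12 h. At 24 h 0.0303% were higher and 0% lower. At 12 h IL18R1, IL1B and IL1R2 stood highest above Pam3CSK4 alone as measured, IL18R1 from a Pam3CSK4 value under the filter level described below.

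Of the 10 genes, 7 reached the filter level on at least 1 array and 5 on all 4. The 7 are a share similar to that over all genes, 13410 of 19775. IL1A, IL36G and IL1R1 were under it throughout. IL18R1 reached it on the PLP 12 h array alone, and IL1R2 on each array but the resting one, so both could enter only by being higher there, and no count over the 7 is used as support.

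**Figure D1:**
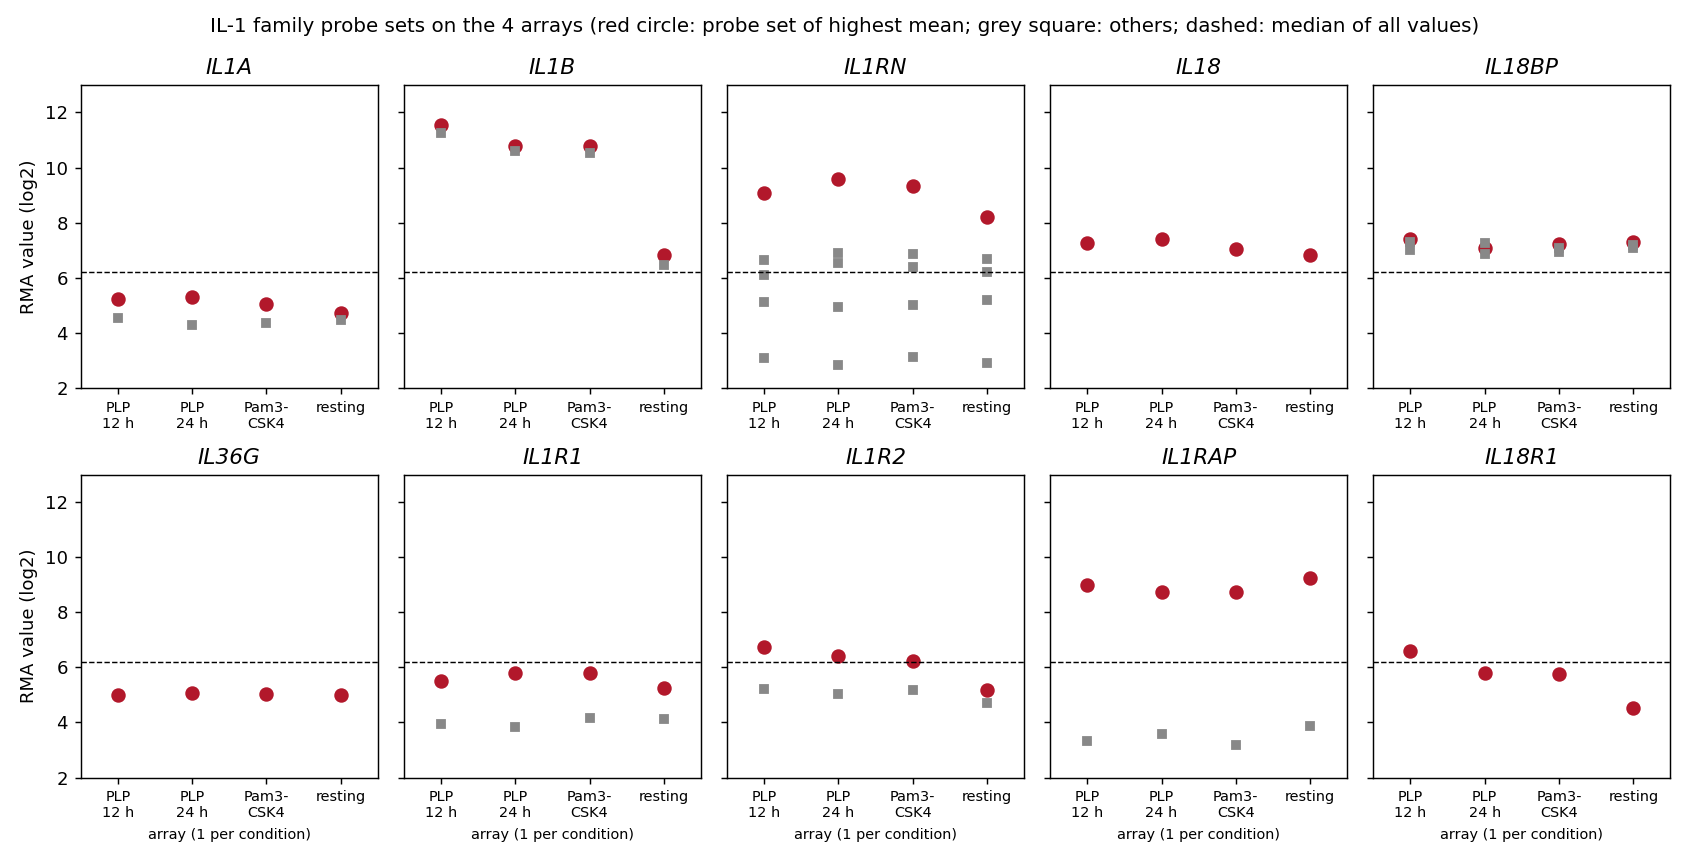
RMA values (log2) of the 21 probe sets of the 10 genes on the 4 arrays, 1 array per condition; red circles are the probe set of highest mean for each gene, grey squares its other probe sets, and the dashed line the median of all values, 6.19. Both IL1B probe sets lie between 10.53 and 11.56 on the 3 treated arrays and at 6.47 and 6.83 on the resting one, while every probe set of IL1A and IL1R1 lies under the dashed line.

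IL1B encodes the secreted agonist IL-1 beta. Its probe set of highest mean read 11.56 on the PLP 12 h array, 10.79 on the PLP 24 h array, 10.78 with Pam3CSK4 and 6.83 in resting cells. The other read 11.26 on the PLP 12 h array, 10.62 on the PLP 24 h array, 10.53 with Pam3CSK4 and 6.47 in resting cells. Both put the PLP 12 h array highest, the resting array lowest and the other 2 close together. Pam3CSK4 exceeded resting cells by 3.96 and 4.07 log2 on the 2 probe sets, which is 15.5-fold and 16.8-fold. Of the 13410 genes, 34 had a larger positive difference than the first of these. The PLP 12 h array exceeded Pam3CSK4 alone by 0.78 and 0.73, or 1.72-fold and 1.66-fold, and 120 genes had a larger positive difference. The PLP 24 h array stood 0.01 and 0.08 over Pam3CSK4 on the 2 probe sets, and under the PLP 12 h array by 0.77 and 0.65.

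The sequence before the IL1B start is shown because IL1B had the largest difference of the family, to be set beside those of IL1R2 and IL18R1 that follow the same order of arrays. The 250 bases before each start site listed in RefSeq (build GRCh38.p14) were searched on both strands for 4 motifs. These were the AP-1 motif TGANTCA, the letters TTNCNNNAA, the TATA box TATAAA and the NF-kB consensus. Capitals mark every match. Matches of different motifs could overlap. Of 35116 such windows over all genes, 6.57% held the AP-1 motif, 30.5% the letters TTNCNNNAA, 10.7% the TATA box and 9.96% the NF-kB consensus. The IL1B window, chr2:112836780-112837029 on the minus strand, held 3 matches to TTNCNNNAA and none to the other motifs.
IL1B: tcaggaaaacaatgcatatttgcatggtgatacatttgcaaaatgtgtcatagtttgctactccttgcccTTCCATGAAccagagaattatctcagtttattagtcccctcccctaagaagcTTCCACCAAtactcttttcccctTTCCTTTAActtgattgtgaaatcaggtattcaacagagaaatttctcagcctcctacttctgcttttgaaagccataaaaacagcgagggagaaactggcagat

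IL1A encodes IL-1 alpha, an agonist that acts as a precursor too and is often released by dying cells. Its probe set of highest mean read 5.22 on the PLP 12 h array, 5.30 on the PLP 24 h array, 5.03 with Pam3CSK4 and 4.73 in resting cells. The other read 4.54 on the PLP 12 h array, 4.28 on the PLP 24 h array, 4.35 with Pam3CSK4 and 4.46 in resting cells. The 2 probe sets put the arrays in different orders, with differences of 0.30 and -0.11 between Pam3CSK4 and resting cells. All 8 values lay under the filter level, so a difference in IL1A was not measurable here. IL36G, a ligand known from skin and other epithelia, read 4.99 on the PLP 12 h array, 5.05 on the PLP 24 h array, 5.05 with Pam3CSK4 and 5.01 in resting cells. Its 4 values spanned 0.07 and also lay under the filter level.

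IL18 encodes a cytokine that drives interferon gamma production in lymphocytes. Its 1 probe set read 7.24 on the PLP 12 h array, 7.40 on the PLP 24 h array, 7.03 with Pam3CSK4 and 6.84 in resting cells. The order of levels differed from that of IL1B: the PLP 24 h array was highest. Pam3CSK4 exceeded resting cells by 0.19, and PLP 12 h and PLP 24 h exceeded Pam3CSK4 by 0.21 and 0.37. The last is 1.29-fold, and 173 of the 13410 genes had a larger positive difference at 24 h, on arrays where the middle 90% of genes lay between -0.21 and 0.23.

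The antagonist genes differed from each other. IL1RN was read by 5 probe sets, of which 3 reached the filter level on at least 1 array. That of highest mean read 9.08 on the PLP 12 h array, 9.58 on the PLP 24 h array, 9.35 with Pam3CSK4 and 8.22 in resting cells. It exceeded resting cells by 1.13 with Pam3CSK4, or 2.19-fold. The other 2 above the filter level exceeded them by 0.18 and 0.19, and the 2 below it by 0.21 and -0.17. The 2-fold count of IL1RN therefore rests on 1 of its 5 probe sets. On the 3 above the filter level the PLP 12 h array was under Pam3CSK4, by 0.27, 0.19 and 0.29, and the PLP 24 h array over it, by 0.23, 0.07 and 0.14. The direction at 12 h was thus opposite to that of IL1B, in a size range that includes many genes: the middle 90% lay between -0.49 and 0.39. IL1RN was highest on the PLP 24 h array on all 3, where it exceeded PLP 12 h by 0.51, 0.26 and 0.42.

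IL18BP, the soluble inhibitor of IL-18, was read by 3 probe sets, all above the filter level on every array. Their values ran from 7.01 to 7.40 on the PLP 12 h array, from 6.85 to 7.28 on the PLP 24 h array, from 6.92 to 7.24 with Pam3CSK4 and from 7.07 to 7.30 in resting cells. These ranges overlap on all arrays. Pam3CSK4 stood between 0.06 and 0.15 under resting cells, and PLP 12 h between 0.08 and 0.19 over Pam3CSK4. At 24 h the probe sets had no common sign, at -0.14, 0.18 and -0.07.

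Among the signalling receptors, IL18R1 had the largest difference. This chain binds IL-18, and its 1 probe set read 6.61 on the PLP 12 h array, 5.79 on the PLP 24 h array, 5.76 with Pam3CSK4 and 4.53 in resting cells. The order of arrays was that of IL1B. Pam3CSK4 exceeded resting cells by 1.24, or 2.35-fold, but both values were under the filter level, so the size of that difference depends on background. PLP 12 h exceeded Pam3CSK4 by 0.85 as measured. The PLP 12 h value was the only 1 of the 4 above the filter level, so the size of this difference depends on background too. PLP 24 h stood 0.02 over Pam3CSK4 and 0.82 under PLP 12 h.

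IL1R1, the signalling receptor of IL-1, was under the filter level on both probe sets. That of highest mean read 5.50 on the PLP 12 h array, 5.80 on the PLP 24 h array, 5.78 with Pam3CSK4 and 5.24 in resting cells. Its difference between Pam3CSK4 and resting cells was 0.55, against 0.03 on the other probe set. IL1RAP, the accessory chain shared by several receptors of the family, was the 1 of the 4 receptor genes among the 10 whose leading probe set was lower with Pam3CSK4. It read 8.99 on the PLP 12 h array, 8.74 on the PLP 24 h array, 8.73 with Pam3CSK4 and 9.23 in resting cells. Pam3CSK4 stood at -0.50 against resting cells, short of 2-fold, and PLP 12 h exceeded Pam3CSK4 by 0.26. The second IL1RAP probe set, between 3.20 and 3.88, was near the bottom of each array.

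IL1R2 encodes the decoy receptor. Its probe set of highest mean read 6.73 on the PLP 12 h array, 6.43 on the PLP 24 h array, 6.21 with Pam3CSK4 and 5.19 in resting cells. Its other probe set, under the filter level, read 5.22 on the PLP 12 h array, 5.03 on the PLP 24 h array, 5.17 with Pam3CSK4 and 4.72 in resting cells. Both had the PLP 12 h array highest and the resting array lowest. Pam3CSK4 exceeded resting cells by 1.03 and 0.45, and PLP 12 h exceeded Pam3CSK4 by 0.51 and 0.05. The first probe set reached 2-fold with Pam3CSK4, at 2.04-fold from a resting value under the filter level, and the second did not.

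The sequences before the listed starts of IL1R2 and IL18R1 are shown with the same motifs in capitals, since both had the same order of arrays as IL1B on their leading probe sets. Each has 2 listed starts, and the probe sets do not tell which was used. For IL1R2 the first window is chr2:101998711-101998960 and the second chr2:101991710-101991959, and for IL18R1 they are chr2:102355546-102355795 and chr2:102356033-102356282, all on the plus strand. The second IL1R2 window held the NF-kB consensus and a TATA box 30 to 25 bases before the start. The first held 1 match to TTNCNNNAA. The second IL18R1 window held the NF-kB consensus on the minus strand, and the first none of the motifs.
IL1R2 first start: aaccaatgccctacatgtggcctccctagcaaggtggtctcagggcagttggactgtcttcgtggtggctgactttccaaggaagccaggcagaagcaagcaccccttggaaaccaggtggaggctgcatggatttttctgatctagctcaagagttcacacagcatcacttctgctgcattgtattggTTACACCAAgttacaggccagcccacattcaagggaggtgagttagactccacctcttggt
IL1R2 second start: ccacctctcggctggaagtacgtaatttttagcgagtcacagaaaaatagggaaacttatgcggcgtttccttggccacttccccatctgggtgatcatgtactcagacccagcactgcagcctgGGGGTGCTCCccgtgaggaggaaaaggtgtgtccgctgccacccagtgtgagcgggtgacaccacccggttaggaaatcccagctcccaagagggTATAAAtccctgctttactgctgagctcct
IL18R1 first start: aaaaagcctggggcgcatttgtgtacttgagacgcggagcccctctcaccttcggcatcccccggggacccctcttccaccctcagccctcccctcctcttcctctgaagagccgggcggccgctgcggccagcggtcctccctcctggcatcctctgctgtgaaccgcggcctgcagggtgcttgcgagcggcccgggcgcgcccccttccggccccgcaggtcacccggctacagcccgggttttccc
IL18R1 second start: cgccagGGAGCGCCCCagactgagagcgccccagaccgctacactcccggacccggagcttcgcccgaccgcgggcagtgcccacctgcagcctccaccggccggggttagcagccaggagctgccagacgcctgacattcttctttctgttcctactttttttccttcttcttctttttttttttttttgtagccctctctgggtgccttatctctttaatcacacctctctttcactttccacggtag

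Windows were found for 9 of the 10 genes, 20 in all, with IL18 the one not matched. The NF-kB consensus was present in 2 of the 20 windows, against 9.96% of all windows, and the AP-1 motif in 3, against 6.57%. The TATA box was present in 4, against 10.7%, and TTNCNNNAA in 8, against 30.5%. Windows of 1 gene can overlap. A match describes these letters only.

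**Figure D2:**
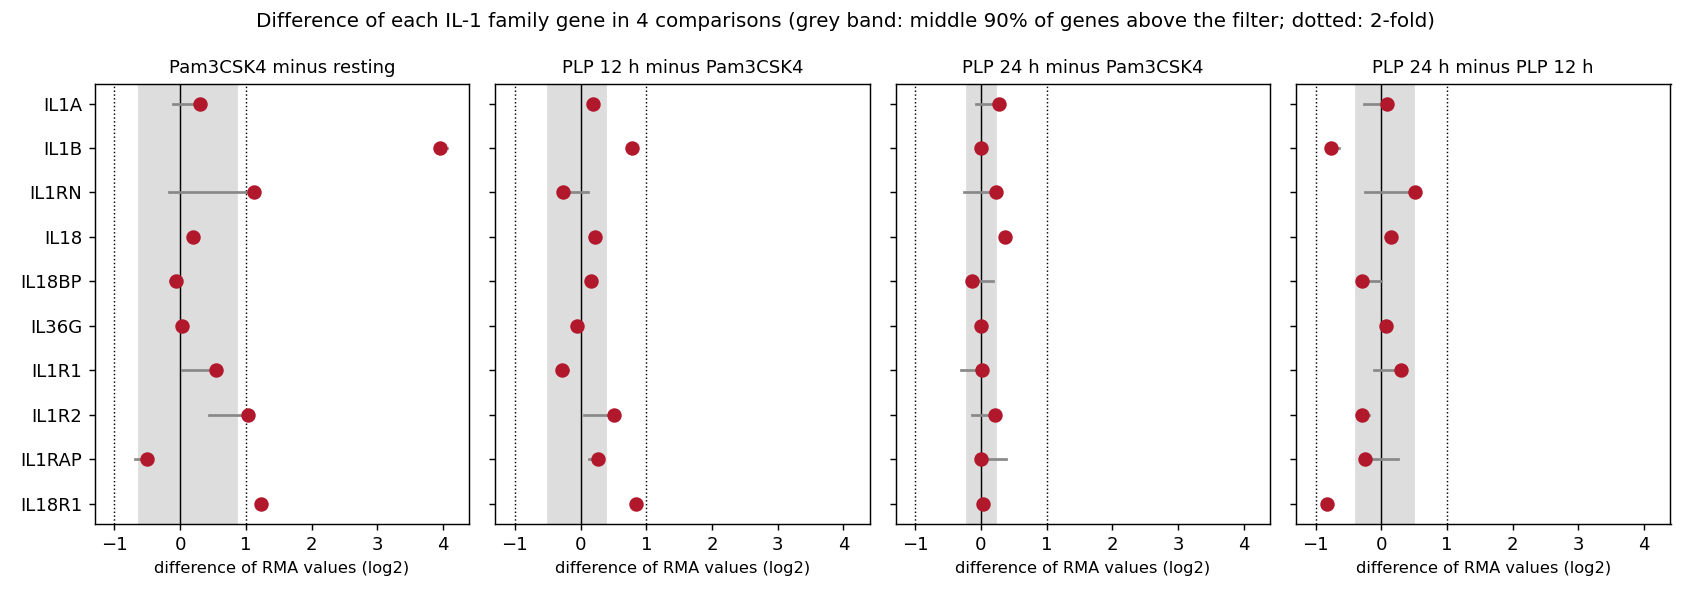
Difference of RMA values (log2) of each of the 10 genes in 4 comparisons; red points are the probe set of highest mean, grey lines the range over all probe sets of the gene, grey bands the middle 90% of the 13410 genes above the filter, and dotted lines 2-fold. IL1B stands at 3.96 between Pam3CSK4 and resting cells. IL1B, IL18R1 and IL1R2 lie above the band at 12 h. Between 24 h and 12 h IL1B and IL18R1 lie below it, and IL1RN is at its upper edge.

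Setting the 24 h array against the 12 h array, 0 of the 10 genes differed 2-fold, where 0.343% of genes were higher and 0.224% lower at 24 h. IL18R1 and IL1B were the furthest down, at -0.82 and -0.77, with IL18BP at -0.30, IL1R2 at -0.30 and IL1RAP at -0.26. IL1RN and IL1R1 were the furthest up, at 0.51 and 0.30, followed by IL18 at 0.15. The middle 90% of the 13410 genes lay between -0.38 and 0.50. The agonist gene IL1B and the antagonist gene IL1RN thus had opposite signs between the co-culture times on their probe sets above the filter level, while the 2 IL1RN probe sets below it stood at -0.25 and -0.20. Platelet and megakaryocyte markers gave a summed linear signal over 12 probe sets, 1 per gene. It was 1129 on the PLP 12 h array, 991 on the PLP 24 h array, 898 with Pam3CSK4 and 949 in resting cells. The 7 of these genes above the filter level had a median difference of 0.38 between PLP 12 h and Pam3CSK4. The granule genes PF4 and PPBP were among the 5 under it on every array. A higher sum at 12 h was not particular to that list. Endothelial markers summed to 4263 on the PLP 12 h array and 2959 with Pam3CSK4. Most of both sums came from PECAM1 alone, at 11.97 and 11.41 log2. Fibroblast and epithelial markers summed to 1419 and 1082 on the same arrays. Lymphocyte markers summed lower at 12 h, at 1227 and 1450, with NKG7, the gene of highest value in that list, at -0.46. With no filter the median difference between PLP 12 h and Pam3CSK4 was 0.09 for lymphocyte, 0.06 for endothelial and 0.14 for fibroblast and epithelial markers. It was 0.28 for platelet and megakaryocyte markers, -0.29 for monocyte markers and -0.01 over all genes. In the monocyte marker list, the median difference between PLP 12 h and Pam3CSK4 was -0.39 over the 11 genes above the filter level, with CD14 at -1.18. The part of these marker signals in the differences at 12 h was not tested.

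The other family members were mostly under the filter level. Of the 6 further ligand genes, IL37 alone reached the filter level, at 7.51 on the PLP 12 h array, 7.30 on the PLP 24 h array, 7.39 with Pam3CSK4 and 7.33 in resting cells. IL33, IL36A, IL36B, IL36RN and IL1F10 did not reach it. Of the 6 further receptor genes, IL18RAP, IL1RL1 and SIGIRR reached it, and 0 of the 3 differed 2-fold in any of the comparisons. Over the 13410 genes at most 4.14% did so in 1 direction, so 0 of 3 is near that share. IL18RAP, the partner chain of IL18R1, read 7.03 on the PLP 12 h array, 6.57 on the PLP 24 h array, 6.38 with Pam3CSK4 and 5.84 in resting cells. It had the same order of arrays as IL18R1, with 0.54 between Pam3CSK4 and resting cells and 0.65 between PLP 12 h and Pam3CSK4. SIGIRR, an inhibitory receptor of the family, had the PLP 12 h array lowest. It read 7.90 there, 8.53 on the PLP 24 h array, 8.48 with Pam3CSK4 and 8.78 in resting cells, and its 2 probe sets differed from Pam3CSK4 by -0.59 and -0.65 at 12 h. Genes outside the 10 that are named with a difference under 2-fold, here and below, were chosen after their values were seen, as were CCL20, MMP1 and IL12B. The marker genes named in the paragraph above were also chosen that way.

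In the RefSeq gene order of chromosome 2, the receptor genes IL1R2, IL1R1, IL1RL2, IL1RL1, IL18R1 and IL18RAP follow each other, and the ligand genes from IL1A and IL1B to IL1RN form a second run of 9 genes. Neighbours did not share one pattern as measured. In the receptor run, IL1R2, IL18R1 and IL18RAP were between 0.51 and 0.85 higher on the PLP 12 h array than with Pam3CSK4, while IL1R1 stood at -0.28 and IL1RL1, which encodes the IL-33 receptor, at 0.10. In the ligand run, IL1B and IL1RN were 2-fold higher with Pam3CSK4 than in resting cells. IL1A, next to IL1B, stood at 0.30, and the 6 genes between IL1B and IL1RN lay between -0.14 and 0.12. IL1R1, IL1A and all of those 6 but IL37 were under the filter level on every array. Above that level, the contrast between neighbours rests on IL1RL1 and IL37 alone.

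**Figure D3:**
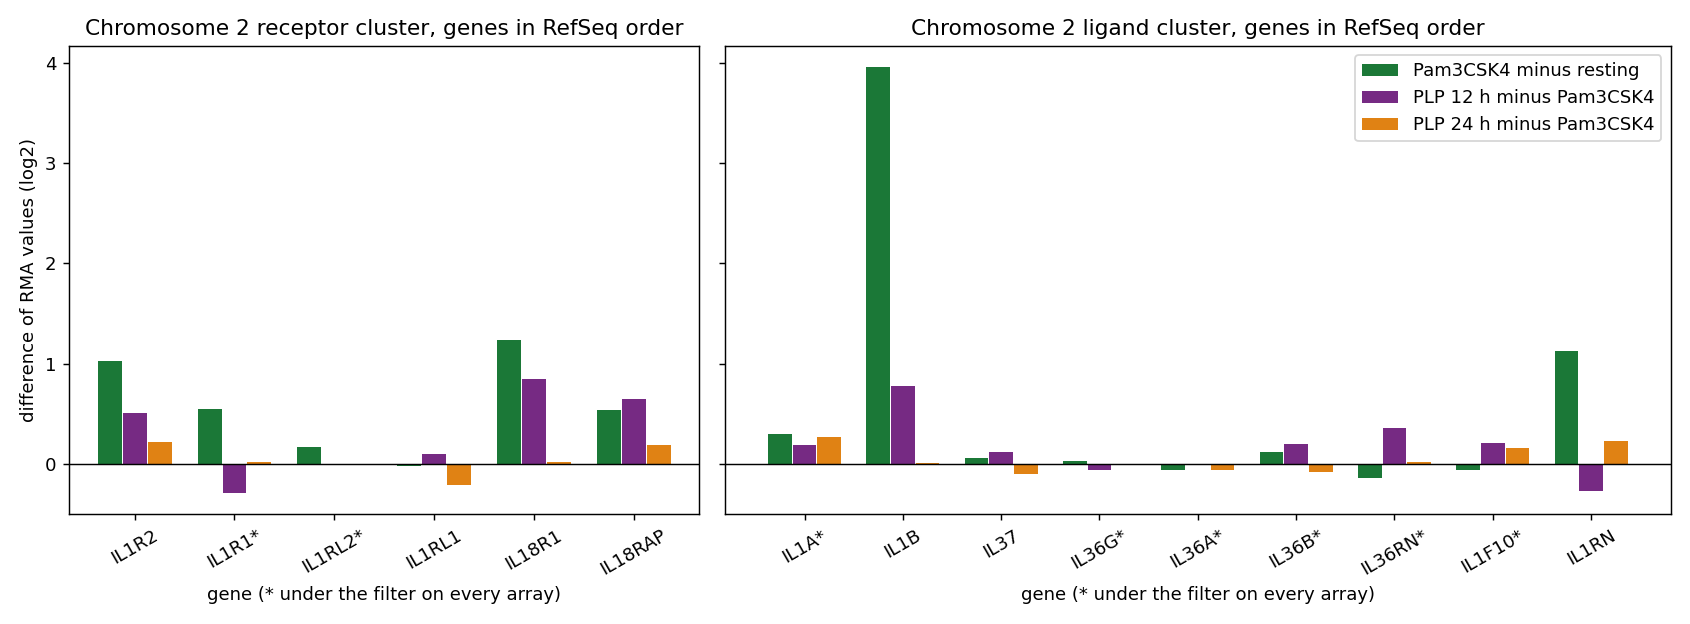
Difference of RMA values (log2) of the family genes of chromosome 2 in RefSeq gene order, for 3 comparisons; an asterisk marks a gene under the filter level on every array, and each bar is the probe set of highest mean. Bars above 1 are those of IL1B, IL1RN, IL1R2 and IL18R1 between Pam3CSK4 and resting cells.

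Genes that mature and release IL-1 beta and IL-18 were in part higher with Pam3CSK4. Of 17 listed genes with a probe set, 5 exceeded resting cells at least 2-fold and 0 were lower to that extent, where 2.86% of all 19775 genes were higher and 1.22% lower. The median difference of the 17 was 0.16, and -0.04 over all genes, with no filter in either. P2RX7, the ATP-gated channel that triggers inflammasome activity, read 10.51 with Pam3CSK4 and 7.12 in resting cells. Its difference was 3.38, and 1.60 on its other probe set. CASP1, the converting enzyme of IL-1 beta, differed by 1.37, and by 1.22 to 2.05 over 5 probe sets, some of which can also bind its close relative CARD16. CASP5, a caspase that senses lipopolysaccharide, differed by 1.63, the sensor gene NLRC4 by 1.52 and the DNA sensor gene AIM2 by 1.03, each from a resting value under the filter level, and AIM2 was under it with Pam3CSK4 too. The sensor gene NLRP3 stood at -0.24 and the adaptor gene PYCARD at -0.10. With the particles, 0 of the 17 differed 2-fold from Pam3CSK4 alone at 12 h or at 24 h, with medians of 0.14 and 0.06. Of all 19775 genes, 0.308% were higher and 0.243% lower at 12 h, and 0.0303% and 0% at 24 h, so 0 is near these shares.

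A further list held 3 serine proteases of granules that can also trim cytokines of the family, and CTSC, the cysteine protease that activates them. All 4 reached the filter level on every array. With Pam3CSK4, 2 of the 4 were at least 2-fold lower than in resting cells and 0 higher, where 1.71% of the 13410 genes were lower and 4.14% higher. PRTN3, proteinase 3, read 9.34 with Pam3CSK4 and 11.16 in resting cells, a difference of -1.82. CTSG, cathepsin G, read 13.63 with Pam3CSK4 and 15.08 in resting cells, a difference of -1.45. At 12 h CTSG stood 0.74 over Pam3CSK4, and at 24 h -0.21. ELANE, neutrophil elastase, differed by -0.66 with Pam3CSK4, under 2-fold. CTSC had the opposite sign, at 0.52, with 0.37 to 0.80 over 4 probe sets, and stood 0.59 over Pam3CSK4 at 12 h.

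Of 15 listed signalling genes below the receptors with a probe set, all reached the filter level. With Pam3CSK4, 2 of the 15 were 2-fold higher than in resting cells and 0 lower, where 4.14% of the 13410 genes were higher and 1.71% lower, and their median difference was 0.18. IRAK2, a kinase of the receptor complex, read 8.44 with Pam3CSK4 and 6.30 in resting cells, a difference of 2.13. PELI1, a ubiquitin ligase of the same pathway, differed by 1.83, with 0.83 to 1.96 over 3 probe sets. The adaptor gene MYD88 differed by 0.58 and the inhibitory kinase gene IRAK3 by 0.83. With the particles, 0 of the 15 differed 2-fold from Pam3CSK4 at either time. Of the 13410 genes, 0.41% were higher and 0.35% lower at 12 h, and 0.0298% and 0% at 24 h, so 0 is near these shares.

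Of 18 genes known to be induced by IL-1 in many cells, and by Toll-like receptors through the same adaptor, 16 had a probe set. With Pam3CSK4, 12 of the 16 exceeded resting cells 2-fold or more and 0 were lower, where 2.86% of all 19775 genes were higher. Their median difference with no filter was 2.78. TNFAIP6, a hyaluronan-binding protein, differed by 6.21, the chemokine gene CCL2 by 5.78, CXCL1 by 4.76 and CXCL8 by 4.74. The first 3 had resting values under the filter level, as had CCL20 and MMP1, so the sizes of these differences depend on background. The adhesion gene ICAM1 differed by 3.70 and the NF-kB regulator gene NFKBIZ by 3.34. CXCL8 ranged from 2.08 to 4.74 and ICAM1 from 0.83 to 5.16 over their probe sets. At 12 h with the particles 4 of the 16 were 2-fold higher than with Pam3CSK4 alone, where 0.308% of all genes were. These were CXCL8 at 1.79, CXCL1 at 1.53, CCL2 at 1.26 and CCL20 at 1.12, and the median of the 16 was 0.33. At 24 h 0 of the 16 were, with a median of 0.07, where 0.0303% of all genes were. IL6, which IL-1 induces in many cells, differed by 0.17 with Pam3CSK4 and read 6.33 on the PLP 12 h array, 5.65 on the PLP 24 h array, 5.65 with Pam3CSK4 and 5.48 in resting cells.

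Of 6 genes linked to IL-18, 3 reached the filter level, and 0 of these 3 differed 2-fold in any comparison. Over the 13410 genes at most 4.14% did so in 1 direction, so 0 of 3 is near that share. IFNG, its classical target in lymphocytes, lay between 4.16 and 4.49 on all arrays. IL12B, a subunit of the cytokine that acts together with IL-18, stayed under the filter level but was the 1 gene of the 6 past 2-fold as measured, at 6.11 on the PLP 12 h array, 4.20 on the PLP 24 h array, 4.17 with Pam3CSK4 and 3.61 in resting cells. The PLP 12 h value stands apart from the other 3, and its size over background was not established.

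**Figure D4:**
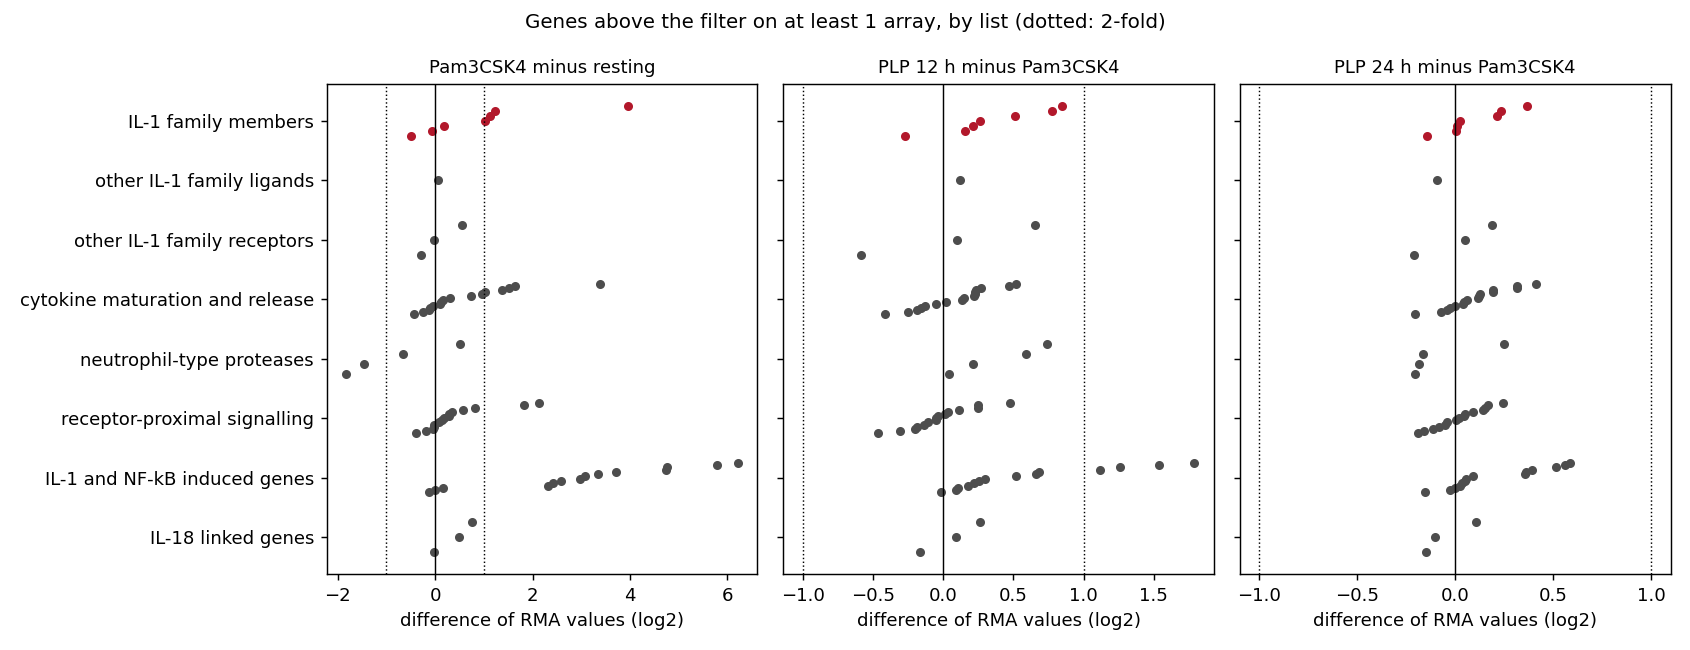
Difference of RMA values (log2) of the genes above the filter level in each list, 1 point per gene, for Pam3CSK4 minus resting, PLP 12 h minus Pam3CSK4 and PLP 24 h minus Pam3CSK4; dotted lines mark 2-fold, red points are the 7 family genes above the filter, and the horizontal scales differ. The 14 genes shown of those known to be induced by IL-1 have a median of 3.02 in the first comparison, 0.41 in the second and 0.07 in the third; some entered through treated arrays alone.

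The genes whose 4-array pattern was most like those of IL1B, IL1RN, IL1A and IL18 were found by the smallest Euclidean distance between log2 values centred over the 4 arrays, among genes above the filter level. For IL1B these were FRK at 0.11, OAS2 at 0.18 and EPSTI1 at 0.22. OAS2, an antiviral enzyme gene, read 10.38 on the PLP 12 h array, 9.61 on the PLP 24 h array, 9.49 with Pam3CSK4 and 5.78 in resting cells. For IL1RN they were PTPRC at 0.11, MEOX2 at 0.12 and TMEM243 at 0.12, for IL1A EIF5A2, MS4A4A and ZNF827 at 0.05 to 0.06, and for IL18 ATP10D, ABHD13 and LPAR3 at 0.01 to 0.07. The distances describe likeness over 4 arrays only, and small ones are common where a gene differs little, as IL1A and IL18 do. The values of IL1A are under the filter level, so its nearest genes carry little weight.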

How the data were processed

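RNA of 4 THP-1 cultures was measured on arrays of 1 type. The deposited values are log2 values made by the authors with RMA in affy 1.28.1, per the submitters' processing notes. They ran from 2.54 to 15.22 and no column was left unmapped. Arrays were grouped by their source labels. A platform annotation named 1 gene for 41091 probe sets, and RefSeq identifiers updated 0 of the family's symbols. For each gene the probe set of highest mean was used, and genes entered a comparison where it reached 6.19, the overall median, on 1 or more arrays. Comparisons are differences of log2 values, counted at 2-fold. With 1 array per group no test was run.

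The members and lists were chosen with earlier results of these data known. Beside the members, up to 6 genes per list that differed 2-fold in a comparison were named, and 3 nearest genes for IL1B, IL1RN, IL1A and IL18. Of 11 monocyte markers above the filter, 4 were 2-fold higher and 1 lower with Pam3CSK4 than in resting cells, and of 7 platelet markers 0. Of the 13410 genes, 4.14% were higher and 1.71% lower. Lists of lymphocyte, endothelial, and fibroblast and epithelial markers were also measured: 0 of 5, 0 of 2 and 2 of 6 genes above the filter were 2-fold higher with Pam3CSK4 than in resting cells. In these lists 0 differed 2-fold between either co-culture array and Pam3CSK4. Of the 13410 genes, 0.41% were higher and 0.35% lower at 12 h, and 0.0298% and 0% at 24 h. The counts of 0 are near these shares. Alternatives were no filter, a 75th percentile filter, averaged probe sets, omission of probe sets ending in _x_at or _s_at, thresholds of 1.5-fold and 3-fold, and cyclic loess with 3 iterations (R 4.3.3, limma 3.58.1). Counting was tested on simulated data. Python 3.11.15, numpy 2.4.6, pandas 2.3.3 and matplotlib 3.10.9 were used.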

Additional observations from a re-analysis of the deposited data

How the results depend on the processing

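The count of 4 family genes at least 2-fold higher with Pam3CSK4 than in resting cells was also 4 with no filter and with cyclic loess. Without _x_at and _s_at probe sets it was 3 of 5 genes counted (4.15% of all genes there), and with a 75th percentile filter 2 of 3 (5.36%). It was 2 of 5 with averaged probe sets (3.66%) and 1 of 7 at a 3-fold threshold (2.31%). IL1R2 and IL18R1 could enter the 3 of 5 only through treated arrays. The counts over filtered genes are therefore not used as support. No family gene was lower under these alternatives or at 1.5-fold. Averaged, IL1RN differed by 0.31 and IL1R2 by 0.74. Without _x_at and _s_at probe sets IL1RN stood at -0.17, since both probe sets left were under the filter level on every array. At 1.5-fold, IL1B and IL18R1 were higher on the PLP 12 h array than with Pam3CSK4, 2 genes where 1.9% of all genes were, and the same 2 were lower on the PLP 24 h than on the PLP 12 h array, where 1.38% were. IL18R1 reached the filter level on the PLP 12 h array alone. With cyclic loess all 40 member differences moved by less than 0.2 log2. Averaging moved 9 of 40 by more.

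The pathway lists held 1 further ligand, 3 further receptor, 16 maturation, 4 protease, 15 signalling, 14 induced and 3 IL-18 linked genes above the filter level. Of these, 20 differed 2-fold between Pam3CSK4 and resting cells, 4 between PLP 12 h and Pam3CSK4, 0 between PLP 24 h and Pam3CSK4 and 2 between PLP 24 h and PLP 12 h. Of the 13410 genes, 4.14% were higher and 1.71% lower in the first comparison, and 0.41% and 0.35% in the second. In the third these shares were 0.0298% and 0%, and in the last 0.343% and 0.224%. Without _x_at and _s_at probe sets the first, second and last counts were 13, 2 and 1, where fewer genes were tested. The shares of all genes higher and lower there were 4.15% and 1.88%, 0.45% and 0.316%, and 0.345% and 0.211%. At 1.5-fold the last 3 counts were 10, 1 and 8, and at 3-fold the second and last were 1 and 0. At 1.5-fold the shares of all genes higher and lower were 1.9% and 2.86%, 0.164% and 0.00746%, and 3.14% and 1.38%. At 3-fold they were 0.0895% and 0.0447%, and 0.0373% and 0.0373%. No paired analysis was possible because each group holds 1 array. No array image values were used, so signal over background was judged by level alone.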
